A study of Mus musculus with 4 samples.

Results

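Enzymes that make carbamoyl phosphate and citrulline, turn citrulline into arginine and ornithine, and make or break down polyamines were followed in adenomas of the mouse small intestine. The set comprised 10 genes out of 29871 rows with distinct symbols, Cps1, Otc, Ass1, Asl, Arg1, Arg2, Nos2, Oat, Odc1 and Sat1, written in capitals in the table (CPS1, OTC, ASS1, ASL, ARG1, ARG2, NOS2, OAT, ODC1 and SAT1). Each was taken by its symbol in the deposited table, and all 10 were found in a single row each. The set was drawn up with the difference between the genotypes already known, so the differences of its members are given as a description, without a p-value.

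RNA sequencing had been done on adenomas from mice with genotype APC Min/+, in which 1 Apc allele is truncated (control, 2 libraries), and on adenomas of genotype PAF KO; APC Min/+, in which PAF is also knocked out (knockout, 2 libraries). The Min allele is shared by all 4 libraries, so no normal mucosa and no Apc wild-type tissue enters the comparison. The age and strain of the mice, how the knockout was made, and whether libraries came from separate or pooled animals are not stated in the labels. Any spread between libraries of a group may therefore be partly technical. PAF is understood, from background knowledge, to be the PCNA-associated factor, product of the Pclaf gene.

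In the liver, the urea cycle turns ammonia into urea. In the small intestine of mammals, its first enzymes serve a different end. Cps1 and Otc, in the mitochondria of enterocytes, make citrulline that is released to the blood and turned into arginine elsewhere, mostly in the kidney. Arginine is split by arginases to ornithine and urea, or oxidised by nitric oxide synthases. Ornithine is either moved by Oat towards proline and glutamate or decarboxylated by Odc1 to putrescine, the first polyamine. Polyamines are needed for growth, and Odc1 is a known target of Myc and of interest in intestinal tumours with loss of Apc.

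Upstream DNA is shown for 3 genes: Odc1 and Otc, which were higher in both knockout libraries, and Sat1, which split them. The sequences are from RefSeq on build GRCm38.p6 and hold the 250 bases before the annotated start site, 5′ to 3′ on the gene's strand. The table held such a stretch for 5 of the 10 members. Oat, also higher in both knockout libraries, and Ass1, lower in both, had one too but are not printed. Capitals mark the GC box GGGCGG on either strand.
Odc1, chr12:17544623-17544872, plus strand: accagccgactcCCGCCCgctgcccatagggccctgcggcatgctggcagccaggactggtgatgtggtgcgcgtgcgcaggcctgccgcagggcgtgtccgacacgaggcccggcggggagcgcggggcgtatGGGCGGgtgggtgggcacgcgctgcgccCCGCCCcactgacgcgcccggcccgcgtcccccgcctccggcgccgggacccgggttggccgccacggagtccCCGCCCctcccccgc
Otc, chrX:10252055-10252304, plus strand: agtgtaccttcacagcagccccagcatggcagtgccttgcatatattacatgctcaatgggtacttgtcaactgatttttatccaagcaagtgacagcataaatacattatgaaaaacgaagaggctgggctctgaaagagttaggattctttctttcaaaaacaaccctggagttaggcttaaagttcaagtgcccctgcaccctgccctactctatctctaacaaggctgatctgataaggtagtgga
Sat1, chrX:155216450-155216699, minus strand: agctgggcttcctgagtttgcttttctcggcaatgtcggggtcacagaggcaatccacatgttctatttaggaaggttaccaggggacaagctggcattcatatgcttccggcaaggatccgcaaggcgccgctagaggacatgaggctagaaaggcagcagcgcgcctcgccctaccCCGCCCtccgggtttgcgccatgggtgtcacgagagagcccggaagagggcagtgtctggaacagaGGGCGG
The Odc1 stretch held 4 GC boxes, the Sat1 stretch 2 and the Otc stretch 0, while 32.7% of 32851 RefSeq promoter stretches of the same length held at least 1. GC content was 80.0% for Odc1, 59.6% for Sat1 and 43.6% for Otc, against a median of 52.4% over all stretches. Neither the E-box CACGTG (found in 6.02% of all stretches) nor the TCF/LEF motif CTTTGAT (3.21%) occurred in these 3, searched on both strands. Upstream of the other 2 genes with an entry, Ass1 held 1 E-box and 1 GC box, and Oat held 2 CCAAT boxes, a motif found in 33.8% of all stretches. These matches describe the letters only.

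Levels are given as FPKM, fragment numbers scaled for transcript length and for the library's total, a scale on which genes of different length can be compared. Depth was estimated from the smallest values as 12900000 and 17200000 fragments in the control libraries and 15400000 and 23000000 with PAF knocked out. The control libraries lay close together, with a median difference of 0.088 on the log2(FPKM + 1) scale over 13716 rows, while the knockout libraries differed by 0.49. Pclaf, listed under its older clone name, read 17.9 and 17.8 FPKM in control adenomas and 4.13 and 11.4 FPKM in knockout adenomas, lower in both knockout libraries but present in each. Knockout library 2 held the X-inactivation transcript Xist at 46.4 FPKM and the Y-linked Eif2s3y at 0. The other 3 libraries held Xist at no more than 0.00861 FPKM and Eif2s3y at 26.0 to 31.7 FPKM, so the sexes are mixed within the knockout group. Markers of intestinal epithelium were abundant in all 4 libraries, their 9 genes summing to 6709 to 7971 FPKM.

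Of the 10 members, 4 were higher in both knockout libraries than in both controls (Cps1, Otc, Oat and Odc1), 4 were lower in both (Ass1, Asl, Arg1 and Nos2) and 2 overlapped (Arg2 and Sat1). Over the 13716 rows that averaged 1 FPKM or more, 21.5% were higher and 30.2% were lower in this sense, and 51.7% did not overlap at all. With limma across those rows and Benjamini-Hochberg adjustment, 0 members had an adjusted p under 0.05, against 0.0729% of all rows. At an unadjusted p under 0.05 there were 4 higher and 3 lower members, where 13.2% of all rows passed. As the members were chosen from this contrast, nothing is read from these counts. The median log2 fold change over the members was 0.29, beside 0.0035 over all tested rows.

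**Figure D1:**
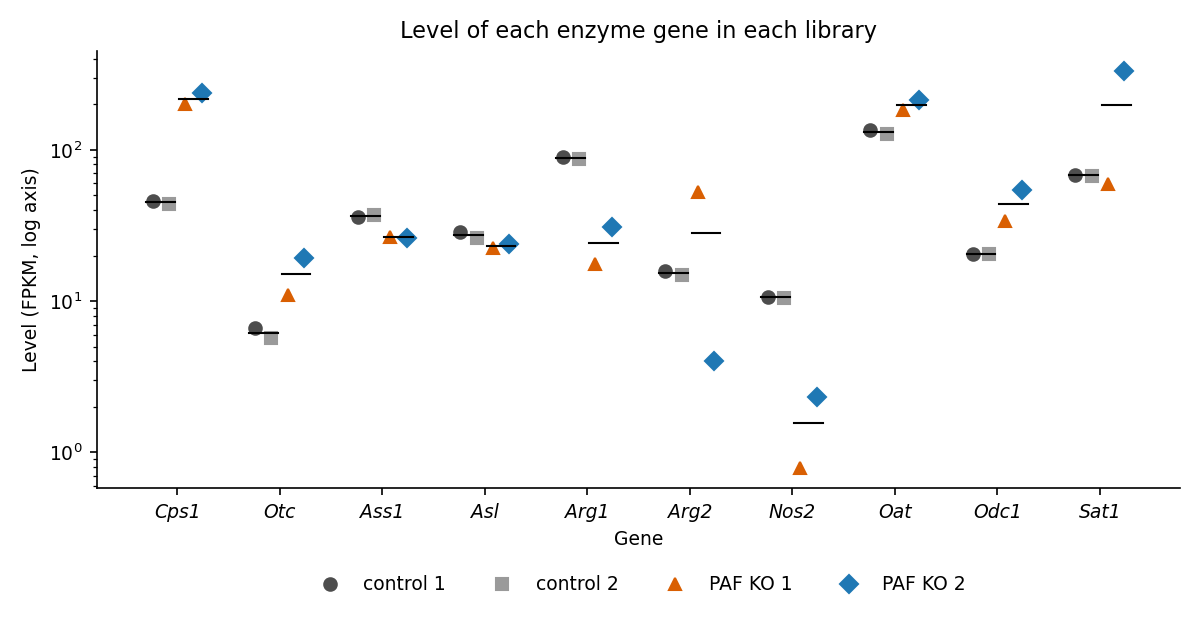
Level of the 10 enzyme genes in each of the 4 libraries, in FPKM on a log axis, with a black bar at each group's mean. Cps1 sits above 200 FPKM in both knockout libraries and near 45 in both controls, while Nos2 drops from above 10 FPKM to 0.784 and 2.33.

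Cps1, which makes carbamoyl phosphate from ammonia and bicarbonate, had the largest upward difference of the set. It read 46.2 and 44.0 FPKM in control adenomas and 200.2 and 236 FPKM in knockout adenomas. Both knockout libraries stood far above both controls and close to each other. The mean was 4.84 times that of the controls, and its log2 fold change of 2.24 (SE 0.181, n = 2 in each group) ranked 55th from the top among the 13716 tested rows.

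Otc joins carbamoyl phosphate to ornithine to make citrulline and is encoded on the X chromosome. It read 6.65 and 5.66 FPKM in control adenomas and 11.0 and 19.3 FPKM in knockout adenomas, which gives a log2 fold change of 1.13 (SE 0.321, n = 2 per group). Both knockout libraries were above both controls, with the higher value in library 2, the library with Xist. Cps1 exceeded Otc in each library, 6.95 and 7.77 times in control adenomas and 18.2 and 12.2 times in knockout adenomas. The excess was thus larger in both knockout libraries, most so in library 1.

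Other genes of the mitochondrial entry to the cycle differed less. Slc25a15, the carrier that brings ornithine into the mitochondrion, read 16.9 and 14.5 FPKM in control adenomas and 22.4 and 22.1 in knockout adenomas (log2 fold change 0.48, SE 0.165, n = 2 per group; limma adjusted p = 0.372). Nags, which makes the obligate activator of Cps1, read 7.25 and 6.91 FPKM in control adenomas, 8.78 in knockout library 1 and 5.95 in knockout library 2. Its knockout values lay on either side of the controls. Of the 6 tested genes of this step, 3 were higher in both knockout libraries, members Cps1 and Otc among them, and 3 overlapped, beside 21.5% higher among all tested rows, and 0 passed over all rows.

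Cps1 and Otc are abundant in the liver as well as in enterocytes, so markers of both cell types were read beside them. Of 12 hepatocyte markers, 7 stayed under 1 FPKM in all libraries, among them the fibrinogen genes Fga, Fgb and Fgg, each at most 0.0731 FPKM. The 12 summed to 89.3 and 88.6 FPKM in control adenomas, 29.0 in knockout library 1 and 102.8 in knockout library 2. Most of this was albumin (Alb), Ttr and Hpd. In knockout library 1, 4 of the 12 lay above both controls and 3 below, and in library 2, 7 above and 2 below. Hpd was higher in both knockout libraries, at 4.16 and 4.34 against 6.81 and 13.7 FPKM. Alb was lower in both, at 66.2 and 64.0 against 9.04 and 62.2 FPKM. The 18 enterocyte markers, led by the apolipoproteins Apoa1 and Apoa4 and the fatty acid binding protein Fabp2, summed to 8662 and 9234 FPKM in control adenomas, 13227 in knockout library 1 and 1411 in knockout library 2. In knockout library 1 the enterocyte markers were split, with 9 above and 8 below both controls, and in knockout library 2 all 18 lay below. Cps1 was 4.44 times the control mean in library 1 and 5.23 times in library 2. Goblet cell markers were higher in both knockout libraries as a sum, as Cps1, Otc, Oat and Odc1 were. Their 7 genes, led by Spink4, Tff3 and Zg16, summed to 6025 and 7080 FPKM in control adenomas, 9737 for knockout library 1 and 13451 for library 2, with 7 and 5 of the 7 above both controls. The mucin gene Muc2 was higher in both knockout libraries, at 170 and 174 against 346 and 332 FPKM. Zg16 read 1792 and 1925 FPKM in control adenomas, 2310 in knockout library 1 and 853 in knockout library 2. It was 1 of the 2 goblet markers below both controls in library 2. The part of goblet cell content in these enzyme values was not tested. In bulk tissue, fewer cells of a type and less RNA per cell cannot be told apart.

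The cytosolic pair that makes arginine from citrulline went the other way by a small amount. Ass1, which joins citrulline to aspartate, read 36.2 and 37.1 FPKM in control adenomas and 26.6 and 26.2 FPKM in knockout adenomas, which gives a log2 fold change of -0.46 (SE 0.148, n = 2 per group). Asl, which splits the product into arginine and fumarate, read 28.5 and 26.2 against 22.4 and 23.7 FPKM (log2 fold change -0.24, SE 0.156). The groups did not overlap for either gene. Ass1 has a processed pseudogene, Gm5424, that matches 73.1% of its transcript at 99.5% identity, so its level is uncertain. The ratio of Cps1 to Ass1 was 1.28 and 1.19 in control adenomas and 7.52 and 8.99 in knockout adenomas.

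**Figure D2:**
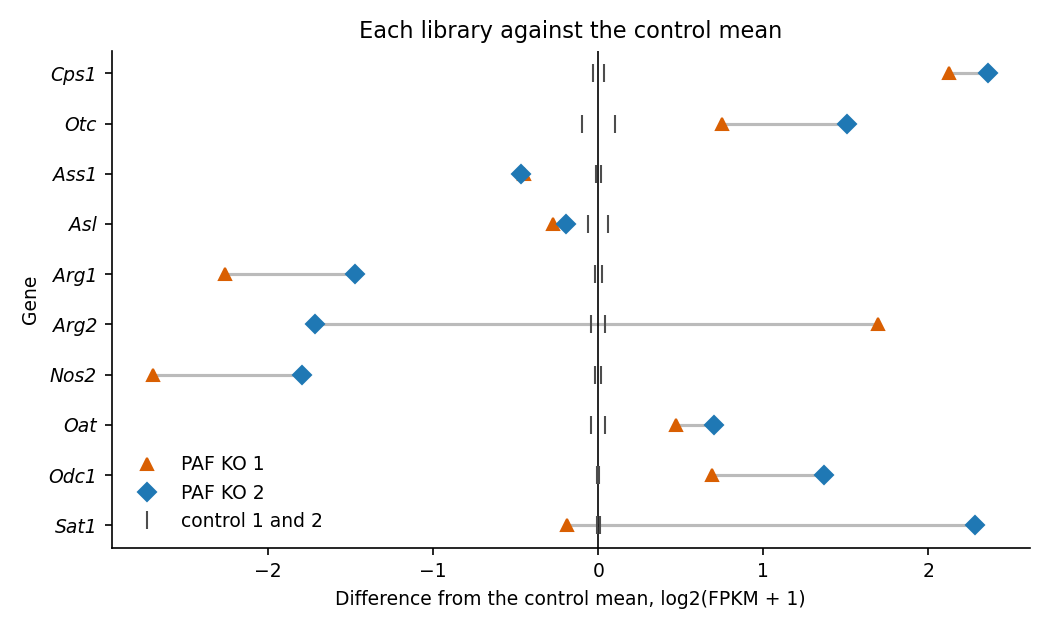
Difference of each library from the control mean on the log2(FPKM + 1) scale, with grey ticks for the controls and a line joining the knockout libraries. The line crosses 0 for Arg2 and Sat1 only, where knockout libraries 1 and 2 gave 1.70 and -1.71, and -0.19 and 2.28.

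Arg1, the cytosolic arginase, was the second most abundant member in both controls. It read 89.2 and 86.6 FPKM there and 17.5 and 31.0 FPKM in knockout adenomas, both of them far below the controls. The control mean was 3.62 times the knockout mean (log2 fold change -1.87, SE 0.324, n = 2 per group). Arg2, the mitochondrial arginase, had no common direction. It read 15.9 and 14.9 FPKM in control adenomas, 52.2 FPKM in knockout library 1 and 3.995 FPKM in knockout library 2, which is 3.39 times and 0.259 times the control mean. Its log2 fold change of -0.01 (SE 1.25) therefore averages large differences of opposite sign, 1.70 and -1.71.

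The make-up of arginase RNA followed from this. Arg1 made up 84.9% and 85.3% of the summed arginase FPKM in control adenomas, 25.1% in knockout library 1 and 88.6% in knockout library 2. The sum itself was 105.0 and 101.5 FPKM in control adenomas, 69.7 in knockout library 1 and 35.0 in knockout library 2. Both knockout libraries were below the controls in total, but Arg2 led in library 1 and Arg1 in library 2. In the annotation, 285 bases at the exons of Arg2 overlap Vti1b on the opposite strand, and 116 overlap the antisense gene Gm48780. Whether the counting used strand is not stated. Vti1b, which encodes a vesicle fusion protein, read 53.2 and 54.3 FPKM in control adenomas, 53.8 in knockout library 1 and 99.6 in knockout library 2. The part of these overlaps in the Arg2 values was not tested.

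**Figure D3:**
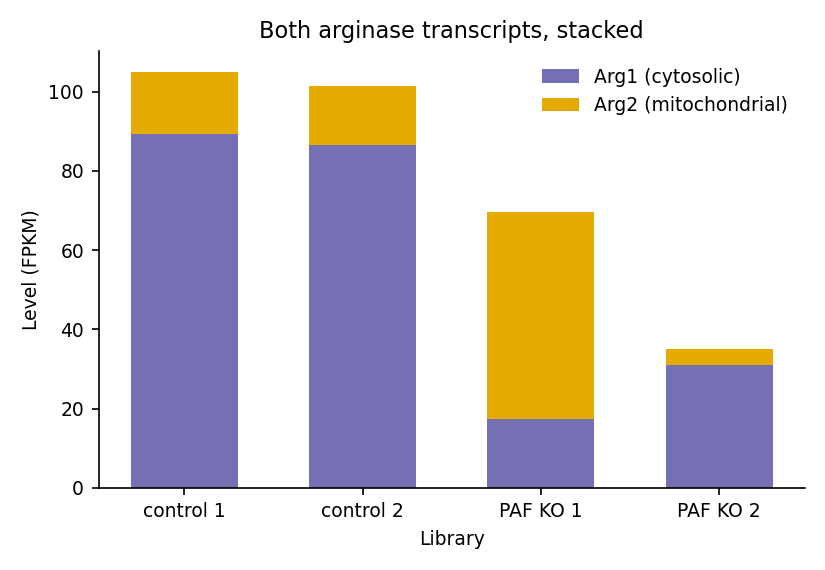
Arg1 and Arg2 levels stacked for each library, in FPKM from 0. Knockout library 1 holds mostly Arg2, 52.2 of 69.7 FPKM, while the other 3 libraries hold mostly Arg1.

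Some enterocyte markers were high and low in the same knockout libraries as Arg2, and others were low in both. The phosphatase Alpi read 102 and 104 FPKM in control adenomas, 510.5 in knockout library 1 and 12.9 in knockout library 2. Apoa4 read 948 and 972 FPKM, then 3251 and 10.2. The sucrase Sis, at 180.4 and 171 FPKM and then 71.8 and 56.4, and the peptidase Anpep, at 708 and 719.5 and then 259.5 and 56.7, were lower in both. The summed enterocyte level was 1.48 times the control mean in knockout library 1, but the median difference over the 18 markers there was 0.11 on the log2 scale, against -1.55 in library 2. The part of enterocyte content in the Arg2 values was not tested.

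Nos2, the inducible nitric oxide synthase, competes with the arginases for arginine and is known from activated macrophages and inflamed epithelium. It read 10.7 and 10.4 FPKM in control adenomas and 0.784 and 2.33 FPKM in knockout adenomas, which gives a log2 fold change of -2.25 (SE 0.366, n = 2 per group) that was the 161st lowest of 13716. Because its knockout levels are near the pseudocount, the ratio of means is larger, 6.78-fold lower in knockout adenomas. The value in knockout library 1 rests on about 50 fragments, with an exact Poisson 95% interval of 0.582 to 1.03 FPKM, and that in library 2 on about 225 fragments, with an interval of 2.04 to 2.66. The intervals do not overlap and cover counting error only, on an estimated depth. The summed arginases exceeded Nos2 9.81 and 9.74 times in control adenomas, 88.9 times in knockout library 1 and 15.0 times in knockout library 2.

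Macrophages and neutrophils can carry Arg1 and Nos2, so their markers were read beside both genes. The 13 macrophage markers, led by Lyz2, C1qa and C1qb, summed to 237 and 240 FPKM in control adenomas, 198 in knockout library 1 and 403 in knockout library 2. In library 1, where Arg1 and Nos2 were lowest, 8 of the 13 lay below both controls and 4 above. In library 2, 11 lay above both controls and 1 below, while Arg1 and Nos2 were below both. The 10 neutrophil markers in the table were led by S100a9, S100a8 and Ltf. They summed to 55.5 and 65.7 FPKM in control adenomas and 197 and 146 FPKM in knockout adenomas. The sum was thus higher in both knockout libraries, where Arg1 and Nos2 were lower. In library 1, 8 of the 10 lay above both controls and 1 below, and in library 2, 6 above and 2 below. Ltf was lower in both knockout libraries, at 36.5 and 35.1 against 29.4 and 32.5 FPKM. Of the 10, 4 stayed under 1 FPKM in all libraries. The sum of the 6 T cell and NK markers, led by the granzymes Gzma and Gzmb, was lower in both knockout libraries, as Arg1 and Nos2 were, at 79.7 and 76.3 FPKM in control adenomas and 36.6 and 41.0 in knockout adenomas. All 6 lay below both controls in library 1 and 4 did in library 2. The part of these cell types in the Arg1 and Nos2 values was not tested.

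Among genes that support nitric oxide synthesis, Ddah2, which clears methylated arginines that inhibit the synthases, read 28.0 and 25.8 FPKM in control adenomas and 12.1 and 12.1 FPKM in knockout adenomas (log2 fold change -1.09, SE 0.152, n = 2 per group; limma adjusted p = 0.237). Its partner Ddah1 read 15.7 and 15.6 FPKM, then 10.2 in knockout library 1 and 27.8 in knockout library 2. Nos3, the endothelial synthase, was low throughout at 1.18 and 0.983 FPKM in control adenomas and 1.90 and 2.06 in knockout adenomas. Gch1, which starts the synthesis of the cofactor tetrahydrobiopterin, read 36.5 and 33.6 against 45.5 and 39.8 FPKM. Of the 7 tested genes of this group, Nos2 included, 2 were higher in both knockout libraries, 2 were lower and 3 overlapped, near the 21.5% higher and 30.2% lower of all tested rows.

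Oat, which moves ornithine towards proline and glutamate or back, was the most abundant member in both controls. It read 135.5 and 128 FPKM there and 183 and 214 FPKM in knockout adenomas, both above the controls. The knockout mean was 1.51 times the control mean (log2 fold change 0.59, SE 0.188, n = 2 per group). Oat exceeded the summed arginases 1.29 and 1.26 times in control adenomas, 2.62 times in knockout library 1 and 6.12 times in knockout library 2.

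Among the enzymes around Oat on the way to proline and glutamate, Pycr1, which makes proline in the mitochondrion, read 42.0 and 40.6 FPKM in control adenomas and 13.4 and 8.69 FPKM in knockout adenomas (log2 fold change -1.84, SE 0.253, n = 2 per group; limma adjusted p = 0.237). Glul, glutamine synthetase, read 124 and 127 FPKM in control adenomas and 43.2 and 52.7 FPKM in knockout adenomas (log2 fold change -1.38, SE 0.186; limma adjusted p = 0.235), and has 2 processed pseudogenes of up to 96.8% identity. Aldh4a1, which oxidises the proline-derived semialdehyde to glutamate, read 9.57 and 8.51 against 3.69 and 4.21 FPKM (log2 fold change -1.02, SE 0.175; limma adjusted p = 0.247). Of 11 tested genes of this step, Oat alone was higher in both knockout libraries, 6 were lower and 4 overlapped, beside 21.5% higher and 30.2% lower among all tested rows, and 0 passed over all rows.

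Odc1, the first and tightly controlled enzyme of polyamine synthesis, read 20.4 and 20.6 FPKM in control adenomas and 33.7 and 54.5 FPKM in knockout adenomas. Both knockout libraries lay above the closely matched controls, library 2 by more. The mean was 2.15 times that of the controls, with a log2 fold change of 1.03 (SE 0.286, n = 2 per group). Odc1 has 14 other annotated genes with stretches of at least 90% identity, 13 of them processed pseudogenes. The longest stretch covers 63.7% of its transcript. Gapdh, a glycolytic gene also known for many pseudogenes, was listed at 0.832 to 1.60 FPKM. The pathway gene Eif5a has 3 processed pseudogenes, which cover less of its transcript, at most 34.0%. Eif5a read 389 and 403 FPKM in control adenomas and 444 and 564 FPKM in knockout adenomas. The absolute level of Odc1 is taken as uncertain. Whether copies affect the level of any of these genes was not tested.

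Sat1, which acetylates spermidine and spermine and so starts their breakdown or export, is also X-linked. It read 68.1 and 67.2 FPKM in control adenomas and 59.1 FPKM in knockout library 1, but 333 FPKM in knockout library 2. Library 2 alone stood apart, at 4.93 times the control mean, and there Sat1 was the most abundant of the 10 members. Sat1 has 2 processed pseudogenes, each matching no more than 23.5% of its transcript, at up to 96.9% identity. Whether these copies affect its level was not tested. The log2 fold change of 1.05 (SE 0.910, n = 2 per group) was -0.19 with library 2 left out and 2.28 with library 1 left out. The ratio of Sat1 to Odc1 was 3.34 and 3.27 in control adenomas, 1.75 in knockout library 1 and 6.11 in knockout library 2, so the balance of breakdown to synthesis transcripts lay on either side of the controls.

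Knockout library 2 also differed from the rest in Xist and in stromal markers. The 6 smooth muscle markers, led by Tagln, Acta2 and Actg2, summed to 189 and 190 FPKM in control adenomas, 200.6 in knockout library 1 and 725 in knockout library 2, or 3.82 times the control mean. The 6 fibroblast markers, led by Dcn, Col1a1 and Col3a1, summed to 262 and 266 FPKM, then 332 and 685. Sat1 was high in this library only. The part of stromal content or of sex in the Sat1, Otc and Odc1 values was not tested.

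**Figure D4:**
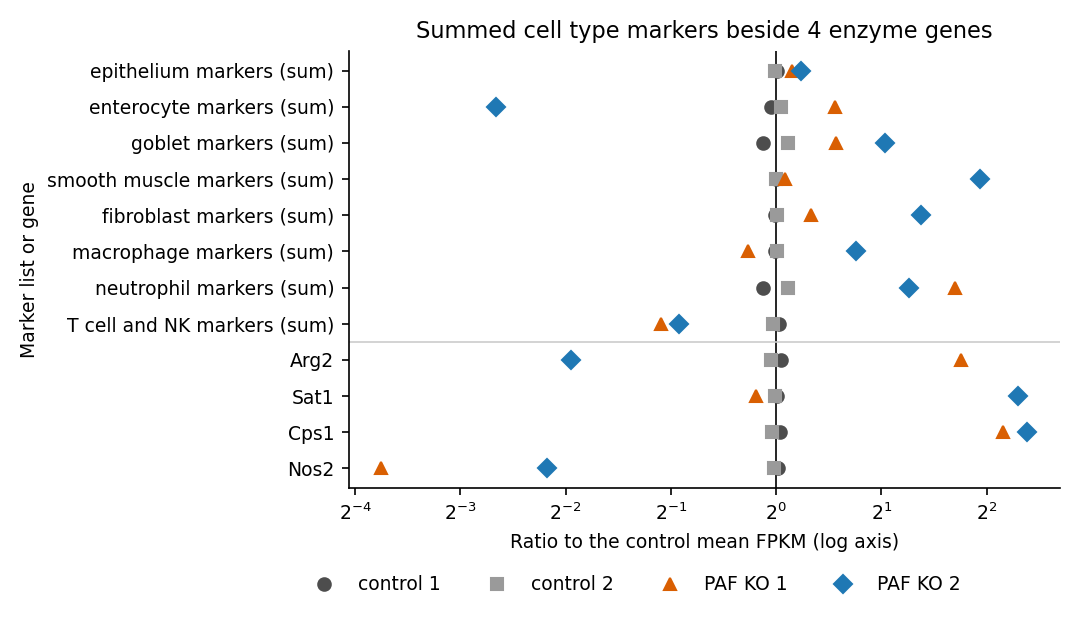
Summed FPKM of 8 cell type marker lists and the FPKM of 4 enzyme genes in each library, as a ratio to the control mean on a log axis. Arg2 lies on the same side of the controls as the enterocyte sum in each knockout library, Sat1 is high in knockout library 2 as are the smooth muscle and fibroblast sums, and Cps1 is high in both.

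Several other polyamine genes also differed between the knockout libraries. Azin1, a protein that frees Odc1 from its inhibitor antizyme, read 45.3 and 43.2 FPKM in control adenomas and 63.9 and 88.3 FPKM in knockout adenomas (log2 fold change 0.75, SE 0.227, n = 2 per group; limma adjusted p = 0.337). Amd2, an S-adenosylmethionine decarboxylase copy, read 4.71 and 4.65 FPKM in control adenomas, 5.64 in knockout library 1 and 37.5 in knockout library 2 (log2 fold change 1.49, SE 0.931; limma adjusted p = 0.524). Amd2 matches Amd1 at 99.6% identity over 99.5% of its transcript. Amd1 had no row of its own, so the Amd2 values may include reads of Amd1. Of the 7 tested genes of polyamine synthesis, Odc1 included, 4 were higher in both knockout libraries and 3 overlapped, beside 21.5% higher among all tested rows. Of the 4 genes of polyamine breakdown, 1 was lower in both (Smox, spermine oxidase, at 103 and 106 against 74.0 and 53.0 FPKM) and 3 overlapped, beside 30.2% lower among all tested rows.

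Among carriers of basic amino acids and polyamines, Slc3a1, the heavy chain of the brush border carrier for arginine and cystine, read 53.2 and 52.1 FPKM in control adenomas and 28.4 and 17.2 FPKM in knockout adenomas (log2 fold change -1.21, SE 0.291, n = 2 per group; limma adjusted p = 0.298). Slc3a2, the heavy chain of the basolateral carriers, read 154 and 163 FPKM in control adenomas, 142 in knockout library 1 and 31.7 in knockout library 2 (log2 fold change -1.23, SE 0.788; limma adjusted p = 0.532). Its difference was -0.16 in library 1 and -2.29 in library 2. Of 9 tested carriers, 6 were lower in both knockout libraries, 3 overlapped and 0 were higher, where 30.2% of all tested rows were lower and 21.5% higher, and 0 passed over all rows.

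**Figure D5:**
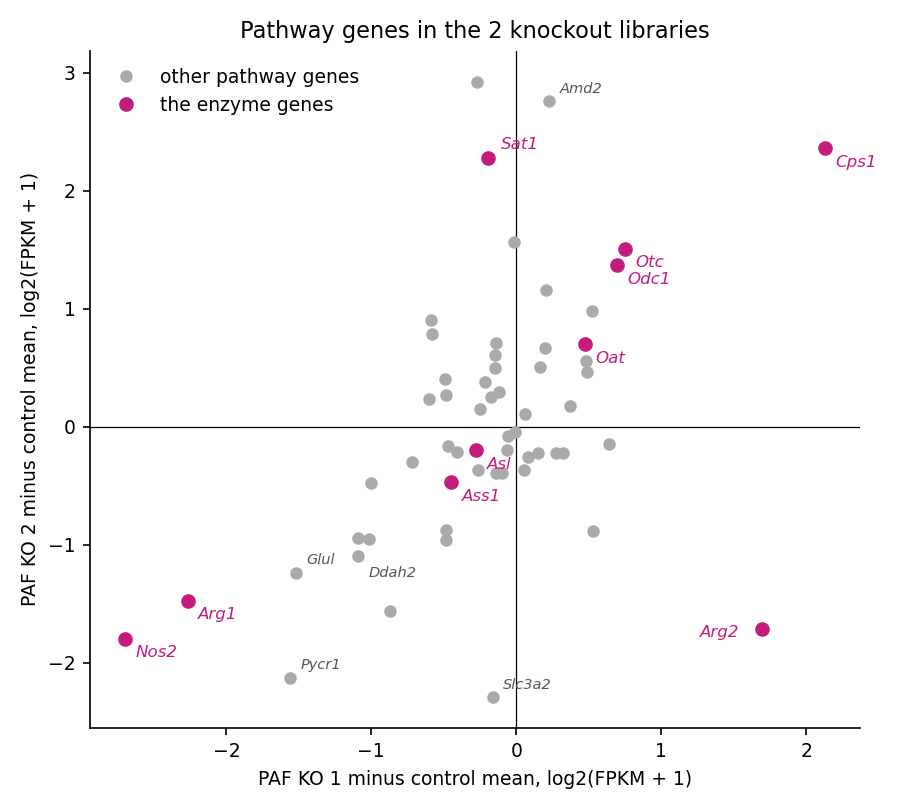
Difference from the control mean on the log2(FPKM + 1) scale in knockout library 1 (x) and knockout library 2 (y) for the 59 tested pathway genes, with the 10 enzyme genes in magenta. Cps1 lies alone at the upper right (2.13, 2.36) and Nos2 and Arg1 at the lower left, while Arg2 and Sat1 lie in quadrants of opposite sign.

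Of 66 listed genes of these pathways, the 10 members included, 64 had a row and 59 passed the filter of 1 FPKM. Over all rows, limma with Benjamini-Hochberg adjustment called 0 of the 59, beside 0.0729% of all rows. At an unadjusted p under 0.05 there were 6 higher and 12 lower, where 13.2% of all rows passed, 472 higher and 1338 lower of 13716. Without the members, which were chosen from this contrast, there were 2 higher and 9 lower. Of the 49 genes that are not members, 8 (16.3%) were higher in both knockout libraries and 16 (32.7%) were lower, beside the 21.5% and 30.2% of all tested rows. Their median log2 fold change was -0.041. Taken for each knockout library by itself, the median difference was -0.14 in library 1 and -0.080 in library 2. For all tested rows it was -0.11 and 0.087. The median log2 fold change over the 59 was -0.080 with knockout library 1 left out and -0.14 with knockout library 2 left out. Over all tested rows it was 0.087 and -0.11 in these fits. In them the remaining knockout library is taken to vary as the controls do, so no count of genes called is read from them.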

How the data were processed

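Values are FPKM as deposited by the authors in a single table of 4 libraries, per the file headers. The submitters' processing notes name TopHat2, Cuffdiff and mm9, and the settings, strand and annotation used are not stated. Odc1, Ass1, Sat1, Glul and Amd2 have near-identical copies, and how fragments were shared among these is not stated. The same holds for Slc3a1, which shares 601 bases, 26.5% of its transcript, with another gene at 100% identity. Aldh4a1, Azin1, Nags, Nos3 and Eif5a also share stretches of at least 90% identity with other annotated genes. Of 29955 rows, 84 repeated a symbol and the row of higher mean was kept. The 13716 rows averaging 1 FPKM or more entered limma 3.58.1 (R 4.3.3) as log2(FPKM + 1), with a variance trend and Benjamini-Hochberg adjustment, and called at an adjusted p under 0.05. Fold changes on this scale understate low genes. Depth was estimated from the commonest small product of FPKM and length among genes with 1 transcript of at least 1000 bases. Intervals from it cover counting error only. On 1030 such genes the control libraries differed by more than sampling noise (median chi-square 0.959 where 0.455 is expected), so they were kept as 2 libraries. Same-numbered libraries are not stated to be paired. Copies were sought with BLAST 2.17.0 in GENCODE transcripts (identity of at least 90% over at least 200 bases). The steps were tested on simulated data. Named genes were the members and, among other pathway genes, the 2 of smallest p in each direction and those with no overlap and an absolute log2 fold change of at least 1. Nags, Ddah1, Nos3, Gch1, Smox, Eif5a, Vti1b, Alpi, Sis, Anpep, Muc2, Fga, Fgb, Fgg and Gapdh were named after their values were seen. Members and lists were chosen with earlier results of these data known. Alternatives were other pseudocounts, filters, scalings and variance priors, a replicate block, and leaving out each library.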

Additional observations from a re-analysis of the deposited data

How the results depend on the processing

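Every alternative kept the direction of 8 members, and Arg2 and Sat1 were the exceptions. The log2 fold change of Arg2, -0.01 as reported, was 0.042 with quantile scaling and 0.049 with median centring, and ranged from -1.71 to 1.70 with 1 library left out (0.033 without control library 1, 1.70 without knockout library 2). That of Sat1 ranged from -0.19 to 2.28, with -0.19 without knockout library 2. Nos2 read -2.86 and -2.96 with pseudocounts of 0.1 and 0.01. The count of rows called, 10 as reported, was 4 with no filter and ranged from 0 to 8397 with 1 library left out: 0 without either control, 8397 without knockout library 1 and 2833 without knockout library 2. The count of pathway genes called ranged from 0 to 40 with 1 library left out and was 0 under all other settings. With the replicate number as a block, 13 rows and 0 pathway genes were called. Same-numbered libraries deviated with a correlation of -0.115 across rows, and crossing the numbers in the block, a choice made after seeing the data, also gave 13 rows and 0 pathway genes. With 2 libraries a group, the median difference of 0.49 (log2) between the knockout libraries limits every call, and depth limits Nos2 most, at about 50 fragments in knockout library 1.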
